A study of Mustela putorius furo with 2 samples.

Results

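The genes described here are the heat shock protein and DNAJ chaperone genes of ferret cortex. They are all features whose symbol starts with HSPA, HSPB, HSPD, HSPE, HSPH, HSP90 or DNAJ, which gave 60 of the 28156 features measured. The 60 comprise 11 HSP70 and HSP110 genes, 2 HSP90 genes, 3 DNAJA, 11 DNAJB and 26 DNAJC genes, and 5 small heat shock protein genes. HSPBP1, a factor that makes HSP70 release its nucleotide, and HSPBAP1 matched the letters HSPB but are not small heat shock proteins. No HSPD or HSPE gene matched. HSPA8, HSPA1A, HSPA1B, HSP90AA1, HSPD1, HSPE1, HSPB11 and DNAJA1 were not analysed here, so the description lacks the main constitutive and stress-induced HSP70 genes, the second cytosolic HSP90 and the mitochondrial chaperonin.

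Transcripts were measured in single nuclei of the somatosensory cortex of the domestic ferret, Mustela putorius furo, by droplet sequencing of nuclei from frozen tissue. Tissue labelled as an upper and a deeper band of cortex gave 1 library each. For both, the genotype is given as DCX knockout, although the series text speaks of a knockdown. Doublecortin, the product of DCX, binds microtubules in young neurons as they migrate, and its loss in humans gives a smooth cortex or a band of misplaced neurons below it. The labels do not define the bands further, and they give no age, sex, number of animals or wild-type group. A value for a band therefore cannot be told apart from one for its animal, dissection or library.

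Chaperones bind unfolded or partly folded proteins and help them to fold, assemble, cross membranes or be degraded. HSP70 proteins do this in cycles of ATP hydrolysis. J-domain proteins, encoded by the DNAJ genes, deliver clients to HSP70 and trigger hydrolysis, and HSP110 proteins and HSPBP1 exchange the nucleotide. HSP90 acts later on partly folded kinases, receptors and other clients, and small heat shock proteins hold unfolded clients without ATP. The families are divided among compartments, with HSPA5 and HSP90B1 in the endoplasmic reticulum and HSPA9 in mitochondria. In neurons some J-domain proteins have fixed posts, such as auxilin (DNAJC6), which uncoats clathrin-coated synaptic vesicles. The heat shock transcription factor HSF1 induces a subset of the cytosolic genes, and the unfolded protein response induces those of the endoplasmic reticulum.

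The upper-band library kept 6261 nuclei and the deeper-band library 8150, after doublets were removed. Nuclei were placed in classes by marker genes, with the chaperone genes left out of the clustering. The upper and deeper libraries held 925 and 2523 oligodendrocyte-like nuclei, 388 and 806 astrocyte-like nuclei, 3184 and 3453 excitatory neuron-like nuclei, and 1022 and 770 inhibitory neuron-like nuclei. Oligodendrocyte precursor-like nuclei (126 and 193) and microglia-like nuclei (47 and 66) were few. Levels are unique molecular identifiers (UMIs) of a gene scaled to the UMI total of the class (CPM), and intervals are exact 95% intervals that cover counting error only. Nuclei are not replicates, so no p-value is given. UMI counts are not corrected for gene length, so no level of a gene is compared with that of another gene. The libraries shared 18 of the kept barcodes. A total of 47 of the 60 genes had at least 50 UMIs over both libraries in 1 or more of the 4 large classes.

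The largest differences of chaperone genes lay between classes of nuclei, in a few genes. HSPB8 was highest in astrocyte-like nuclei and HSPA12A in neurons, and DNAJC6 and DNAJB2 were highest in oligodendrocyte-like nuclei. HSPA5, HSP90B1, DNAJC3 and HSP90AB1 were lowest in excitatory nuclei and highest in oligodendrocyte-like nuclei. Among the 27 genes whose highest class was the same in both libraries and held at least 50 UMIs in each, that class was oligodendrocyte-like for 15, excitatory for 7, inhibitory for 3 and astrocyte-like for 2. The UMI minimum left out genes such as HSPB1 and DNAJA4, highest in astrocyte-like nuclei on as few as 12 and 25 UMIs in a library. The same count over all features is not given, so no preference of the chaperone genes for a class is drawn from it.

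HSPB8, a small heat shock protein that works with the co-chaperone BAG3 in selective autophagy, stood at 120.3 CPM (upper band) and 145.8 CPM (deeper band) in astrocyte-like nuclei. In oligodendrocyte-like nuclei its level was 0.89 CPM (upper band) and 0.76 CPM (deeper band), on 2 and 4 UMIs. The log2 ratio of the astrocyte-like to the oligodendrocyte-like level was 7.08 (95% interval 5.21 to 10.14) in the upper-band library and 7.58 (6.205 to 9.46) in the deeper-band library. Both libraries thus placed the gene in astrocytes and near 0 in oligodendrocytes. Excitatory nuclei lay between, at 12.9 and 22.9 CPM, and inhibitory nuclei were at 19.4 and 18.6 CPM in the upper and deeper bands. Its partner BAG3, which is not among the 60, was likewise highest in astrocyte-like nuclei, at 38.2 and 41.2 CPM, against 0.91 and 0.29 CPM in excitatory nuclei.

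Depth differs between classes, with a median of 10401 to 10750.5 UMIs in excitatory nuclei and 1923 to 2804 in the glial classes, so shares of nuclei were compared after thinning each nucleus to 1500 UMIs. At that depth HSPB8 was seen in 16% (95% interval 12.5 to 20.2) of upper-band and 19.4% (95% interval 16.6 to 22.4) of deeper-band astrocyte-like nuclei. It was seen in 0 of 841 oligodendrocyte-like nuclei of the upper band, which by a limit of 3 counts allows a share of up to 0.357% of nuclei with a UMI at this depth, and in 1 of 2072 of the deeper band. Without thinning the shares in astrocyte-like nuclei were 30.7% and 28.3%. Too shallow for thinning were 84 and 451 nuclei of the oligodendrocyte-like class and 14 and 52 of the astrocyte-like class.

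HSPA12A, a distant member of the HSP70 family, was a gene of neurons. Excitatory nuclei held 88.7 CPM (upper band) and 85.3 CPM (deeper band), and inhibitory nuclei 65.4 and 64.7 CPM. Astrocyte-like nuclei had 6.64 and 1.01 CPM on 8 and 2 UMIs, and oligodendrocyte-like nuclei 4.87 and 4.97 CPM on 11 and 26 UMIs. The excitatory level exceeded the oligodendrocyte-like level 18.2-fold in the upper-band library and 17.2-fold in the deeper-band library. After thinning, HSPA12A was seen in 11.2% (95% interval 10.1 to 12.4) and 11% (95% interval 10 to 12.1) of excitatory nuclei and in 0.713% (95% interval 0.262 to 1.55) and 0.579% (95% interval 0.3 to 1.01) of oligodendrocyte-like nuclei. Free RNA was not removed from the counts. For scale, CAMK2A, a kinase of excitatory neurons, gave 908.5 and 994.9 CPM in excitatory and 29.7 and 20.8 CPM in oligodendrocyte-like nuclei, and the 11 excitatory markers together summed to 2669 and 2907 CPM in excitatory, 265.4 and 219.4 CPM in oligodendrocyte-like and 1150 and 903 CPM in astrocyte-like nuclei, where NEUROD2 was at 0. The part of free RNA in the small glial values of HSPA12A was not tested.

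DNAJC21 and DNAJC2 act at the ribosome, the first in the maturation of the large subunit and the second as a co-chaperone of nascent chains. DNAJC21 reached 200.6 CPM (upper band) and 211.6 CPM (deeper band) in excitatory nuclei, against 70.8 and 77.7 CPM in inhibitory and 61.4 and 73.9 CPM in astrocyte-like nuclei. Its oligodendrocyte-like level, 116.5 and 137.1 CPM, lay between. DNAJC2 stood at 119.1 and 156.6 CPM in excitatory nuclei and from 73.0 to 91.7 CPM in the other 3 classes. Among the 4 large classes both genes were thus highest in excitatory nuclei in each library. DNAJC1, a J-domain protein of the endoplasmic reticulum membrane, was lowest in oligodendrocyte-like nuclei, at 300.4 and 303.4 CPM, while its excitatory and astrocyte-like levels (477.1 and 465.8 CPM, and 466.1 and 462.0 CPM) overlapped within their intervals.

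DNAJC6 (auxilin), known for its work at the synapse, had its highest CPM outside neurons. Oligodendrocyte-like nuclei held 1434.4 CPM (upper band) and 1558.1 CPM (deeper band). Excitatory nuclei held 608.1 and 616.3 CPM, inhibitory nuclei 421.1 and 458.2 CPM and astrocyte-like nuclei 86.3 and 89.5 CPM. The oligodendrocyte-like level exceeded the excitatory level 2.36-fold in the upper-band library and 2.53-fold in the deeper-band library. Thinned to equal depth, DNAJC6 was seen in 83.6% (95% interval 80.9 to 86) and 87% (95% interval 85.4 to 88.4) of oligodendrocyte-like nuclei. In excitatory nuclei the shares were 59.4% (95% interval 57.7 to 61.1) and 58.1% (95% interval 56.4 to 59.7), the same order as the CPM. Without thinning DNAJC6 was seen in 90.7% and 88.9% of oligodendrocyte-like and 98.6% and 98.4% of excitatory nuclei, the reverse order. Among the 3 oligodendrocyte-like clusters it ranged from 1303 CPM (led by OPALIN) to 2153 CPM (led by ABCA9) in the upper band and from 1343 to 2084 CPM, for the same clusters, in the deeper band. GAK, the auxilin homologue that most cell types use and that is not among the 60, did not share this pattern, at 29.2 and 26.2 CPM in oligodendrocyte-like and 31.9 and 30.2 CPM in excitatory nuclei.

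DNAJB2, which passes misfolded proteins to the proteasome, stood at 95.3 CPM (upper band) and 81.4 CPM (deeper band) in oligodendrocyte-like nuclei. Excitatory nuclei had 9.08 and 8.27 CPM, and the ratio was 10.5-fold in the upper-band library and 9.83-fold in the deeper-band library. DNAJC16, a membrane J-domain protein, had 53.2 and 52.5 CPM in oligodendrocyte-like nuclei against 20.5 and 17.6 CPM in inhibitory nuclei. DNAJB1, the main stress-inducible partner of cytosolic HSP70, had a higher CPM in the 2 glial classes than in the 2 neuronal ones. It stood at 123.6 and 158.9 CPM in astrocyte-like nuclei and 126.3 and 157.9 CPM in oligodendrocyte-like nuclei, against 34.6 and 37.6 CPM in excitatory and 35.8 and 41.6 CPM in inhibitory nuclei. The 2 glial levels overlapped within their counting intervals, and so did the 2 neuronal levels. At equal depth DNAJB1 was seen in 17.4% (95% interval 13.7 to 21.6) and 19.1% (95% interval 16.4 to 22.1) of astrocyte-like nuclei and 4.96% (95% interval 4.23 to 5.77) and 5.45% (95% interval 4.72 to 6.27) of excitatory nuclei.

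3 resident chaperones of the endoplasmic reticulum, HSPA5, HSP90B1 and DNAJC3, followed 1 order of classes, which other members of that compartment such as DNAJC1 and DNAJC25, both highest in excitatory nuclei, did not share. HSPA5 (BiP), its HSP70, had 15.4 and 26.7 CPM in excitatory, 25.2 and 43.2 CPM in inhibitory, 34.0 and 53.8 CPM in astrocyte-like and 38.6 and 54.8 CPM in oligodendrocyte-like nuclei of the upper and deeper bands. HSP90B1 (GRP94), its HSP90, had 78.5 and 94.9 CPM, 125.3 and 175.2 CPM, 185.0 and 229.7 CPM and 201.2 and 237.0 CPM in the same classes. DNAJC3, a J-domain partner of HSPA5, had 107.4 and 112.0 CPM, 142.6 and 145.2 CPM, 189.9 and 188.0 CPM and 208.3 and 207.6 CPM. Excitatory nuclei were lowest and oligodendrocyte-like nuclei highest for all 3 genes in both libraries, while the astrocyte-like and oligodendrocyte-like intervals overlapped for each. HSP90AB1, the constitutive cytosolic HSP90, kept the same order, at 143.5 and 225.4 CPM, 206.3 and 350.4 CPM, 340.9 and 411.7 CPM and 443.6 and 567.7 CPM.

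**Figure D1:**
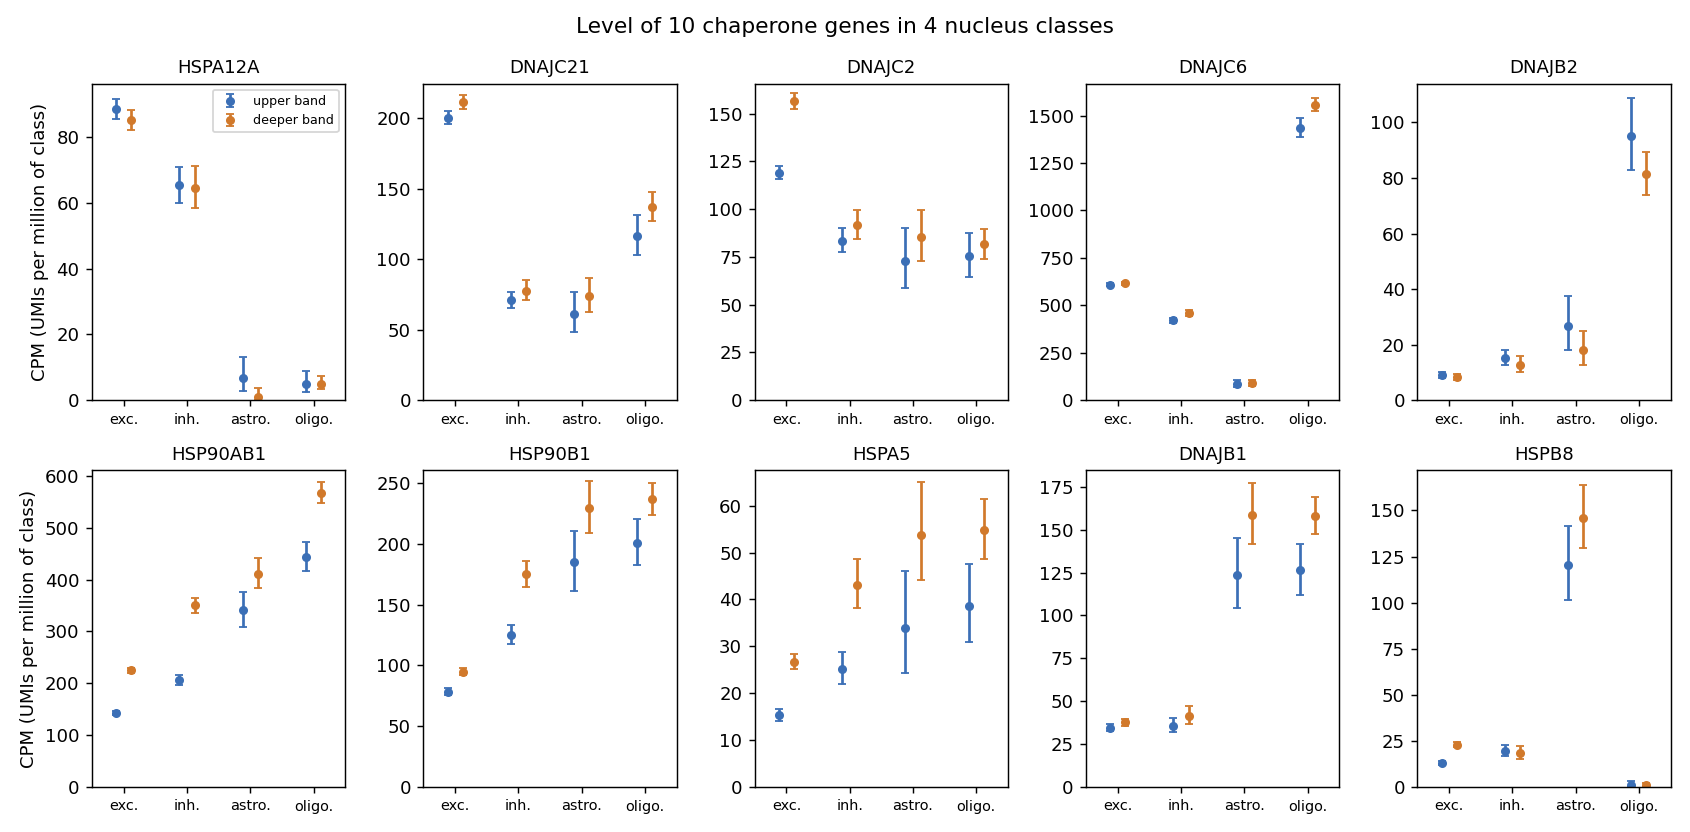
Level of 10 chaperone genes in excitatory (exc.), inhibitory (inh.), astrocyte-like (astro.) and oligodendrocyte-like (oligo.) nuclei. Each panel is 1 gene with its own linear axis in CPM from 0. Points are the class sums of the upper-band (blue) and deeper-band (orange) library, and bars are 95% counting intervals. HSPA12A is near 0 in both glial classes, HSPB8 is near 0 in oligodendrocyte-like nuclei only, and HSPA5, HSP90B1 and HSP90AB1 climb from excitatory to oligodendrocyte-like nuclei.

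Counted over the set, 13 of 48 genes were at least 1.5-fold higher and 8 at least 1.5-fold lower in oligodendrocyte-like than in excitatory nuclei in both libraries, beside 24% and 33.4% of all 15917 features compared. For astrocyte-like against excitatory nuclei the counts were 10 higher and 5 lower of 48, beside 22.1% and 27.5% of features. Inhibitory and excitatory nuclei differed in 5 genes in 1 direction (DNAJB2, DNAJC27, HSP90B1, HSPA5 and HSPB1) and 1 in the other (DNAJC21), beside 14% and 12.8%. Between the glial classes 4 genes were higher in astrocyte-like nuclei (DNAJA4, DNAJC1, HSPB1 and HSPB8) and 7 in oligodendrocyte-like nuclei, of 43, beside 21.5% and 19.5%. No test was made of these counts against those of all features.

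Several chaperones were close to level across the classes. HSPH1, an HSP110 nucleotide exchange factor, ranged only from 137.0 to 190.5 CPM over the 4 classes and both bands. HSPA4L, a second HSP110 protein, ranged from 76.6 to 123.7 CPM. HSPA9 (mortalin), the mitochondrial HSP70 that pulls proteins through the inner membrane, ranged from 57.1 to 84.6 CPM. DNAJC10, which reduces disulfide bonds in the endoplasmic reticulum, and DNAJB6, which keeps polyglutamine proteins from aggregating, likewise varied by less than 1.5-fold between the lowest and the highest class of each library.

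In the small classes only a few genes had counts to describe. Microglia-like nuclei had 342.2 and 419.2 CPM of DNAJC13, an endosomal J-domain protein, on 28 and 35 UMIs, against 145.8 and 146.1 CPM in oligodendrocyte-like and 89.2 and 94.1 CPM in excitatory nuclei. Their HSPH1 level was 366.7 and 419.2 CPM on 30 and 35 UMIs. Both genes were above the levels of the 4 large classes in each library. Oligodendrocyte precursor-like nuclei had 155.5 and 197.8 CPM of DNAJC6 and 5.36 and 6.31 CPM of DNAJB2 (2 and 3 UMIs), so the high levels of the mature oligodendrocyte-like class were not seen in them.

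Between the bands, most chaperone genes moved little, and those that moved lay mostly higher in the deeper band. HSPA5 and HSP90AB1 stood out in neurons, where the deeper-band level was 1.57- to 1.73-fold the upper-band level. In excitatory nuclei 3 of 47 genes were at least 1.5-fold higher and 1 at least 1.5-fold lower in the deeper band, beside 4.2% and 7.68% of 15553 features. Inhibitory nuclei had 4 of 45 higher and 0 lower, beside 3.49% and 3.82%. Astrocyte-like nuclei had 5 of 37 higher and 0 lower, beside 5.15% and 3.87%, and oligodendrocyte-like nuclei 1 of 41 higher and 0 lower, beside 5.02% and 3.19%. As shares of the genes with enough UMIs, the higher ones made up 6.38%, 8.89%, 13.5% and 2.44% in the 4 classes. The median log2 ratio of deeper to upper band over these genes was 0.08, 0.10, 0.15 and 0.06 in excitatory, inhibitory, astrocyte-like and oligodendrocyte-like nuclei, beside -0.03, -0.01, 0.01 and 0.01 over all features.

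**Figure D2:**
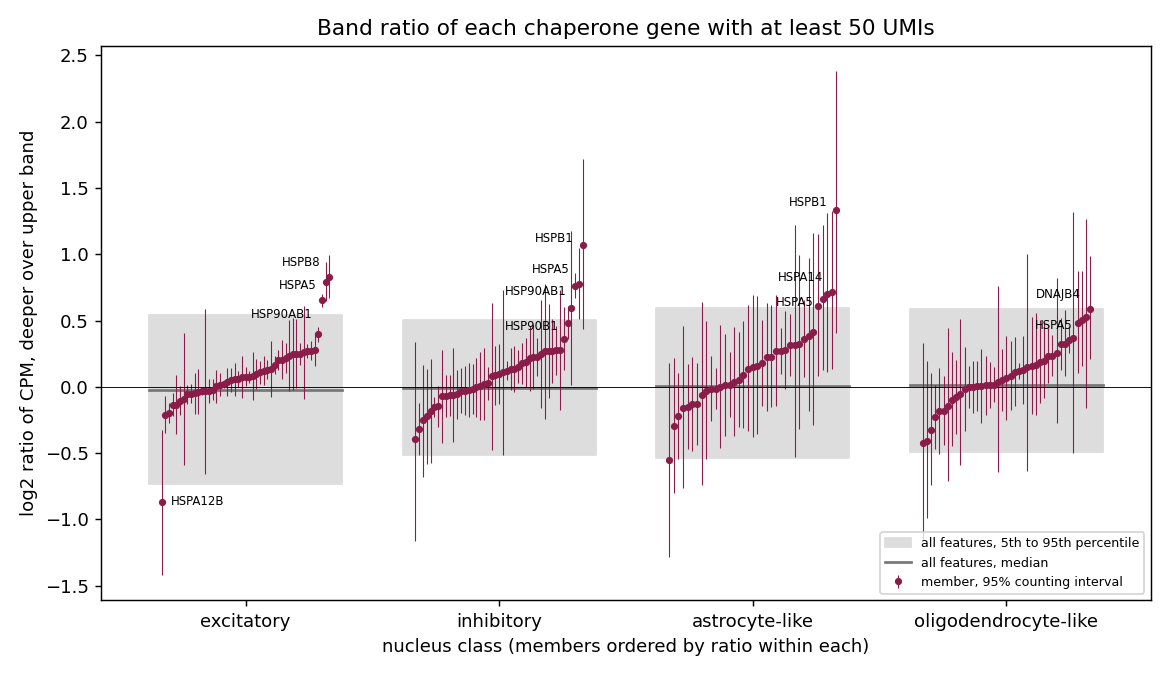
Log2 ratio of CPM, deeper over upper band, of each chaperone gene with at least 50 UMIs in the class (47, 45, 37 and 41 genes), ordered by ratio within each of 4 classes. Bars are 95% counting intervals, the grey box spans the 5th to 95th percentile of all features with at least 50 UMIs, and the grey line is their median. HSPB8, HSPA5 and HSP90AB1 lie above the box in excitatory nuclei, HSPA12B lies below it, and most other genes lie inside.

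HSPA5, the BiP chaperone that binds nascent secretory proteins and keeps the stress sensors of the endoplasmic reticulum inactive, was higher in the deeper band in each of the 4 classes. Its excitatory level was 15.4 CPM (upper band) and 26.7 CPM (deeper band), a log2 ratio of 0.79 (95% interval 0.64 to 0.94). Inhibitory nuclei went from 25.2 to 43.2 CPM, a log2 ratio of 0.78 (95% interval 0.51 to 1.04). The astrocyte-like log2 ratio was 0.66 (95% interval 0.13 to 1.22) and the oligodendrocyte-like one 0.51 (95% interval 0.16 to 0.87). Every interval lay above 0, but with 1 library per band they hold no variation between animals. After thinning to 1500 UMIs per nucleus the astrocyte-like log2 ratio was 0.55 (95% interval -0.20 to 1.36), an interval that included 0. The thinned intervals of the other large classes stayed above 0. At 1500 UMIs per nucleus HSPA5 was seen in 2.34% (95% interval 1.84 to 2.92) of upper-band and 4.24% (95% interval 3.59 to 4.96) of deeper-band excitatory nuclei, the same direction.

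The other endoplasmic reticulum members did not move as a block. HSP90B1 was higher in the deeper band by a log2 ratio of 0.27 in excitatory, 0.48 in inhibitory, 0.31 in astrocyte-like and 0.24 in oligodendrocyte-like nuclei, with every interval above 0. After thinning to 1500 UMIs per nucleus its astrocyte-like ratio was 0.12 (95% interval -0.20 to 0.45), an interval that included 0. HSPA13, an HSP70-like protein of microsomes, had 0.28 and 0.27 in the neuronal classes and -0.03 and 0.16 in the glial ones. DNAJC3 stayed within 0.06 of 0 in all 4, with values of 0.06, 0.03, -0.01 and 0.00. DNAJC25 had a lower level in inhibitory nuclei of the deeper band (67.1 and 53.9 CPM), a log2 ratio of -0.32 (95% interval -0.52 to -0.12), and -0.02 in excitatory nuclei. DNAJC18 was slightly lower in excitatory nuclei (-0.14) and had -0.29 in astrocyte-like nuclei. Of the 12 members that work in the endoplasmic reticulum, 1 of 12 in excitatory, 1 of 12 in inhibitory, 1 of 10 in astrocyte-like and 0 of 12 in oligodendrocyte-like nuclei were at least 1.5-fold higher in the deeper band and none was 1.5-fold lower. That gene was HSPA5 each time. Of all features 4.2%, 3.49%, 5.15% and 5.02% were that much higher in the 4 classes, and 7.68%, 3.82%, 3.87% and 3.19% that much lower. The list's median log2 ratios were 0.09, -0.02, -0.01 and 0.06.

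Genes outside the set that respond to the unfolded protein response gave mixed values beside HSPA5. SDF2L1, an endoplasmic reticulum partner of HSPA5, had log2 ratios of 0.83, 0.99, 0.57 and 1.04 in excitatory, inhibitory, astrocyte-like and oligodendrocyte-like nuclei. Its astrocyte-like interval (-0.21 to 1.40) included 0. MANF, a secreted protein of that compartment, had 0.23, 0.65, 0.58 and 0.34. CANX had 0.26, 0.38, 0.49 and 0.26, with every interval above 0. CALR had 0.44, 0.85, -0.02 and 0.52, and its astrocyte-like interval included 0. XBP1, a transcription factor of the response, had -0.26, -0.24, 0.61 and 0.08. Both of its neuronal values were below 0, but the inhibitory interval (-0.49 to 0.01) included 0, as did the oligodendrocyte-like one. HERPUD1, a degradation factor, had -0.18 and -0.19 in excitatory and inhibitory nuclei, and 0.83 and 0.22 in astrocyte-like and oligodendrocyte-like nuclei. For HERPUD1 only the excitatory interval (-0.35 to -0.01) left out 0. Of the response genes with enough UMIs, 1 of 14 in excitatory, 3 of 13 in inhibitory, 2 of 12 in astrocyte-like and 1 of 12 in oligodendrocyte-like nuclei were at least 1.5-fold higher, and 0 were 1.5-fold lower. The shares of all features were 4.2%, 3.49%, 5.15% and 5.02% higher, and 7.68%, 3.82%, 3.87% and 3.19% lower. Above 0 were 7 of 14, 8 of 13, 9 of 12 and 11 of 12, beside 45.4%, 49.0%, 51.2% and 51.9% of all features. The list's medians were 0.00, 0.18, 0.19 and 0.18, and the excitatory median lay near 0.

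HSP90AB1, which folds kinases and steroid receptors in the cytosol, stood at 143.5 CPM (upper band) and 225.4 CPM (deeper band) in excitatory nuclei, a log2 ratio of 0.65 (95% interval 0.60 to 0.70). In inhibitory nuclei it went from 206.3 to 350.4 CPM, a log2 ratio of 0.76 (95% interval 0.67 to 0.86). Astrocyte-like nuclei gave 0.27 (95% interval 0.10 to 0.45) and oligodendrocyte-like nuclei 0.36 (95% interval 0.25 to 0.46). The gene was higher in the deeper band in all 4 classes, and its neuronal ratios lay above the glial ones without overlap of the intervals. After thinning to 1500 UMIs per nucleus the astrocyte-like log2 ratio was 0.0078 (95% interval -0.23 to 0.25), so the astrocyte-like difference was not seen at that depth.

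Most other genes of the list that HSF1 is known to induce had excitatory ratios nearer to 0, while in astrocyte-like nuclei HSPB1, DNAJB4 and DNAJB1 had higher ratios than HSP90AB1. HSPH1 had 0.27 in excitatory nuclei (154.8 and 186.8 CPM), 0.15 in inhibitory nuclei, and 0.02 and 0.01 in the glial classes. DNAJB1 had 0.12 and 0.22 in the neuronal classes and 0.36 and 0.32 in astrocyte-like and oligodendrocyte-like nuclei. HSPA4 and HSPA4L, both HSP110 proteins, had 0.16 and 0.20 in excitatory nuclei. DNAJB4, a J-domain partner of cytosolic HSP70, reached 0.59 (95% interval 0.21 to 0.99) in oligodendrocyte-like nuclei (32.3 and 48.7 CPM) and had 0.05 in excitatory nuclei. Of the list's measured members, 1 of 7, 2 of 7, 1 of 7 and 1 of 6 were at least 1.5-fold higher in the 4 classes, and 0 were 1.5-fold lower. Beside them stood 4.2%, 3.49%, 5.15% and 5.02% of all features higher, and 7.68%, 3.82%, 3.87% and 3.19% lower. The list's medians were 0.16, 0.22, 0.27 and 0.19. HSF1 itself had log2 ratios of -0.02, -0.01, -0.17 and -0.06.

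HSPB1 (HSP27), a small heat shock protein that is strongly stress-induced, rested on few counts. Astrocyte-like nuclei had 9.95 and 25.1 CPM on 12 and 50 UMIs, a log2 ratio of 1.34 (95% interval 0.41 to 2.38), and inhibitory nuclei 4.197 and 8.80 CPM on 36 and 54 UMIs, a log2 ratio of 1.07 (95% interval 0.43 to 1.72). Excitatory nuclei had 1.23 and 1.20 CPM, a log2 ratio of -0.03 (95% interval -0.65 to 0.59). After thinning to 1500 UMIs the excitatory log2 ratio was 1.05 (95% interval -0.79 to 3.20), on 4 and 9 nuclei with a UMI, so the excitatory value does not fix a direction. The thinned ratio was 1.29 (95% interval -0.14 to 2.86) in inhibitory and 1.23 (95% interval 0.02 to 2.65) in astrocyte-like nuclei. In the inhibitory clusters led by LRRC38 and CALB1 the ratios were 0.94 and 0.73, with intervals that included 0. The inhibitory cluster led by CALB2 held 1 and 16 UMIs. Without the astrocyte-like cluster led by MFAP5, GFAP and CD44, which held 4 nuclei of the upper band and 86 of the deeper band, the astrocyte-like log2 ratio was 0.79 (95% interval -0.20 to 1.89), an interval that includes 0. The 12 vascular markers summed to 161.7 and 183.5 CPM in astrocyte-like nuclei, with CLDN5 and RGS5 at 0. In oligodendrocyte-like nuclei they summed to 849.9 and 940.9 CPM, and their part was not tested. The related small heat shock protein gene CRYAB, which the letter rule does not cover, had log2 ratios of 1.83, 2.24, 1.84 and 1.95.

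HSPB8 was higher in the deeper band over all excitatory nuclei, and it varied strongly among the excitatory clusters, whose mix differed between the bands. Its class level was 12.9 CPM (upper band) and 22.9 CPM (deeper band), a log2 ratio of 0.83 (95% interval 0.67 to 0.99), while inhibitory nuclei had -0.06 and astrocyte-like nuclei 0.28 (95% interval -0.01 to 0.58). The inhibitory value moved to -1.66 (95% interval -3.234 to -0.34) after thinning to 1500 UMIs, where 25 and 6 nuclei had a UMI. The gene was high in the excitatory clusters led by MME (29.1 and 34.0 CPM), PTGIS (26.5 and 32.0 CPM) and SYT10 (20.2 and 27.4 CPM). It was low in those led by FOXP2 (0.90 and 1.63 CPM) and GALNT14 (6.195 and 5.35 CPM). The first 3 clusters together made up 22.0% of upper-band and 59.0% of deeper-band excitatory nuclei. The part of this mix in the class ratio was not tested. Within clusters, HSPB8 was higher in the deeper band in 5 of 8, with log2 ratios from -2.61 (NPR3, 43 and 1 UMIs) to 0.56 (HNF4G). Upper-layer-like excitatory nuclei had 0.59 (95% interval 0.41 to 0.78) and deep-layer-like ones -2.18 (95% interval -4.50 to -0.56), the latter on 53 and 3 UMIs.

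HSPA5 and HSP90AB1 were also higher in the deeper band within each of the neuronal clusters compared. Clusters were compared where they held at least 20 nuclei per band and 20 UMIs of the gene. Among the neuronal clusters this left out those led by TLL1 (excitatory, 16 and 20 nuclei) and CHODL (inhibitory, 22 and 12 nuclei). HSP90AB1 was higher in 11 of 11 excitatory clusters, with log2 ratios from 0.46 (MME) to 1.14 (TRPC7), in 4 of 4 inhibitory and in 3 of 3 oligodendrocyte-like clusters. HSPA5 was higher in 11 of 11 excitatory clusters, from 0.07 (HHLA2, 21 and 4 UMIs) to 1.19 (PTGIS), in 4 of 4 inhibitory clusters and in 2 of 3 oligodendrocyte-like clusters. HSP90B1 was higher in 10 of 11 and 4 of 4 neuronal clusters. Among the 11 excitatory clusters compared, the only exception for HSP90B1 was the one led by NPR3, at -0.05 with 21 nuclei in the deeper band. In the TLL1 cluster, which was left out, HSP90B1 had -0.43, HSP90AB1 0.42 and HSPA5 1.27, each with an interval that included 0. Of 36 chaperone genes with at least 20 UMIs in every one of the 11 excitatory clusters, 3 were higher in the deeper band in all of them (HSPA5, HSP90AB1 and DNAJB1), or 8.33%, beside 2.23% of 7090 features. For the 4 inhibitory clusters 7 of 37 were (DNAJB6, DNAJC6, DNAJC8, HSP90AB1, HSP90B1, HSPA4L and HSPA5), or 18.9%, beside 11.2% of 8167 features. In the 11 excitatory clusters the interval lay above 0 in 11 for HSP90AB1, in 8 for HSPA5 and in 0 for DNAJB1. The direction of DNAJB1 was thus within counting error in each of them.

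**Figure D3:**
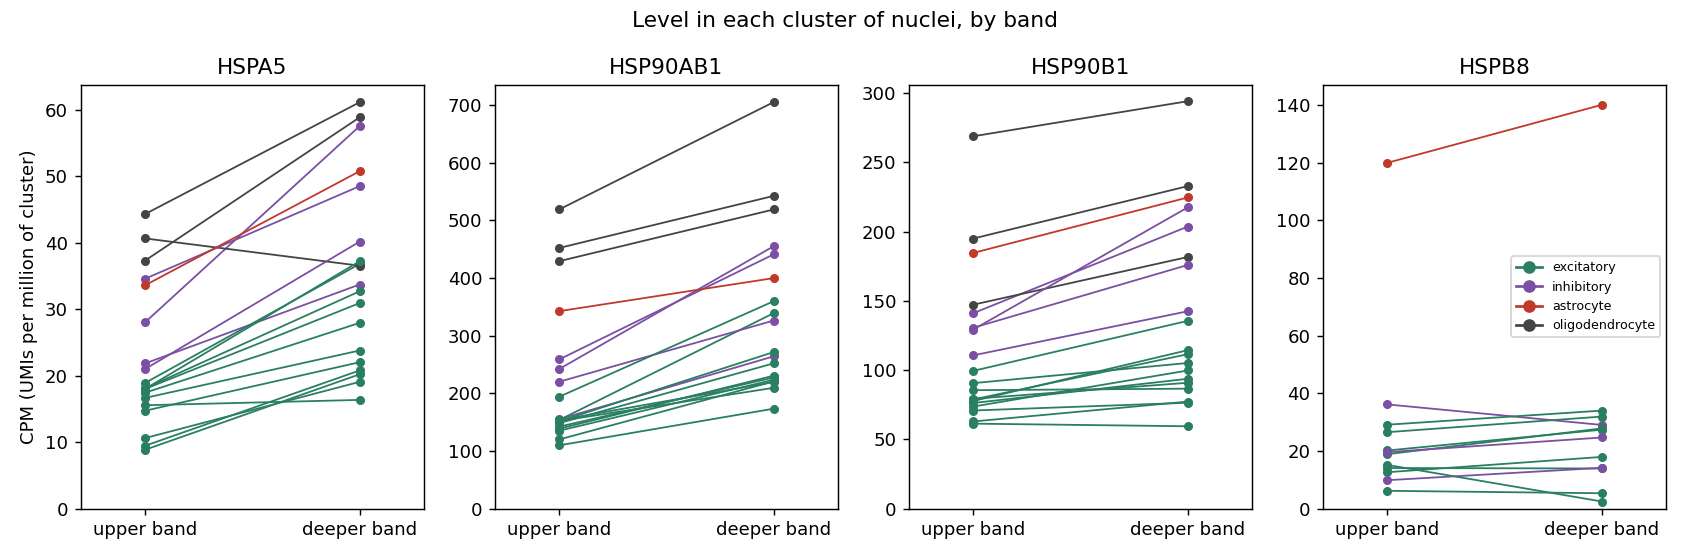
Level of HSPA5, HSP90AB1, HSP90B1 and HSPB8 in each cluster, upper band to the left and deeper band to the right of each panel. Each line is 1 cluster with at least 20 nuclei per band and 20 UMIs of the gene, coloured by class, and the axes are linear CPM from 0. HSP90AB1 slopes up in every neuronal cluster, HSPA5 does too, and 1 oligodendrocyte-like cluster slopes down for HSPA5. HSPB8 differs more between clusters than between bands.

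The same held for the layer and interneuron groups. At least 1.5-fold higher in the deeper band were 3 of 47 genes in upper-layer-like, 2 of 43 in deep-layer-like, 4 of 43 in MGE-like and 3 of 37 in CGE-like nuclei, beside 3.44%, 5.7%, 3.44% and 5.27% of all features. The numbers at least 1.5-fold lower were 1, 1, 1 and 0, beside 4.91%, 6.75%, 4.13% and 3.83%. HSPA5 and HSP90AB1 were among the higher genes in all 4 groups. In upper-layer-like excitatory nuclei (1626 and 2900) HSPA5 had a log2 ratio of 0.86 (95% interval 0.66 to 1.06), and in deep-layer-like ones (926 and 258) 0.85 (95% interval 0.44 to 1.24). HSP90AB1 had 0.67 (95% interval 0.60 to 0.73) and 0.99 (95% interval 0.86 to 1.11). In MGE-like and CGE-like inhibitory nuclei, the interneuron groups that arise in the medial and caudal ganglionic eminences, HSPA5 had 0.59 and 0.65 and HSP90AB1 0.73 and 0.69. The deeper-band library held a larger share of upper-layer-like nuclei among its excitatory nuclei than the upper-band library, 84.0% against 51.1%, and the ratios of both genes were present in each group. HSPH1 differed in this respect, with 0.26 in upper-layer-like and -0.01 (95% interval -0.18 to 0.16) in deep-layer-like nuclei.

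DNAJC2 had the next highest ratio in excitatory nuclei, at 119.1 CPM (upper band) and 156.6 CPM (deeper band) and a log2 ratio of 0.40 (95% interval 0.34 to 0.45). Within the layer groups its ratios were nearer to 0. It had 0.25 (95% interval 0.19 to 0.32) in upper-layer-like and -0.04 (95% interval -0.27 to 0.18) in deep-layer-like nuclei and was higher in 9 of 11 clusters. DNAJC21, the other ribosome-linked member, had 0.08 over all excitatory nuclei but was higher in only 3 of 11 clusters. For DNAJC21 the cluster levels ran from 75.5 CPM (HHLA2) to 251.0 CPM (SYT10) in the upper band, and SYT10 held 5.84% of excitatory nuclei there and 27.8% in the deeper band. DNAJC17, linked to splicing, was the member of this nuclear and ribosomal list with the lowest excitatory ratio, -0.21 (95% interval -0.35 to -0.07). No gene of the list of 6 was 1.5-fold higher or lower in either neuronal class.

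HSPA12B, which is best known from endothelium, was the 1 gene at least 1.5-fold lower in the deeper band in any of the 4 large classes. It had 2.20 and 1.20 CPM in excitatory nuclei on 82 and 46 UMIs, a log2 ratio of -0.87 (95% interval -1.42 to -0.33). After thinning to 1500 UMIs the ratio was -0.27 (95% interval -1.75 to 1.18), no longer past 1.5-fold. The excitatory cluster led by FOXP2 held 20 UMIs in its 542 upper-band nuclei and 0 in its 121 deeper-band nuclei. The 12 vascular markers summed to 90.1 and 74.2 CPM in excitatory nuclei, with none at 0, and to 849.9 and 940.9 CPM in oligodendrocyte-like nuclei. Their part in this result was not tested. HSPA12B was at 0 UMIs in oligodendrocyte-like nuclei of both bands. The mitochondrial member DNAJC11, part of the complex that shapes the cristae, was also lower in excitatory nuclei, from 86.5 to 75.4 CPM and a log2 ratio of -0.20 (95% interval -0.27 to -0.13), and had -0.03 in inhibitory nuclei. HSPA9 and DNAJA3, the mitochondrial HSP70 and its J-domain partner, had 0.01 and -0.05 in excitatory nuclei. The mitochondrial member DNAJC4 had 5.83 and 8.80 CPM in inhibitory nuclei on 50 and 54 UMIs, a log2 ratio of 0.59 (95% interval 0.01 to 1.18).

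In astrocyte-like nuclei, 3 genes beside HSPA5 and HSPB1 passed 1.5-fold, on 125, 126 and 151 UMIs over both bands. DNAJA2, a J-domain partner of cytosolic HSP70, had 28.2 and 45.7 CPM, a log2 ratio of 0.70 (95% interval 0.12 to 1.31). HSPA14, the HSP70-like partner of a ribosome-bound J-domain complex, had 28.2 and 46.3 CPM and 0.71 (95% interval 0.13 to 1.33). DNAJC24, a J-domain protein of diphthamide synthesis, had 35.7 and 54.3 CPM and 0.61 (95% interval 0.08 to 1.15). All 3 differed little between bands in excitatory nuclei, at 0.22, 0.04 and 0.06, and DNAJC24 was also higher in oligodendrocyte-like nuclei, at 0.48 (95% interval 0.10 to 0.87). Without the cluster led by MFAP5, GFAP and CD44 their astrocyte-like ratios were 0.69, 0.68 and 0.62. At a minimum of 200 UMIs no gene was 1.5-fold higher in this class.

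Among the lowest ratios of the other 3 large classes, most rested on few counts and had intervals that included 0. Exceptions in inhibitory nuclei were DNAJC25, given above, and DNAJC1 at -0.15 (95% interval -0.23 to -0.08). DNAJB2 was lower in all 4, with log2 ratios of -0.13, -0.25, -0.55 and -0.23, and each interval included 0. In the subgroup of deep-layer-like nuclei its ratio was 0.33 (95% interval -0.33 to 0.95). DNAJC9, a histone chaperone, had -0.40 (95% interval -1.16 to 0.34) in inhibitory and -0.42 (95% interval -1.15 to 0.33) in oligodendrocyte-like nuclei. DNAJB5 had -0.41 (95% interval -0.99 to 0.19) and DNAJC17 -0.33 (95% interval -0.74 to 0.10) in oligodendrocyte-like nuclei. DNAJC16 had -0.22 (95% interval -0.58 to 0.13) in inhibitory nuclei. Apart from DNAJC25 and DNAJC1, none of these differed beyond its counting error. In contrast DNAJB12, a membrane J-domain protein of the endoplasmic reticulum, was among the higher genes of oligodendrocyte-like nuclei at 0.53 (95% interval -0.16 to 1.27), again with an interval that included 0. DNAJB14 had -0.22 (95% interval -0.55 to 0.11) in astrocyte-like and 0.32 (95% interval 0.08 to 0.58) in oligodendrocyte-like nuclei.

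DNAJC6 and HSPA12A, which differed strongly between classes, had band ratios near 0 in the classes where they were high. DNAJC6 had log2 ratios of 0.02, 0.12, 0.05 and 0.12 in excitatory, inhibitory, astrocyte-like and oligodendrocyte-like nuclei. HSPA12A had -0.06 and -0.02 in the neuronal classes. The endosomal member DNAJC13 had 0.08 and -0.15 there. DNAJB6, close to level across the classes, had 0.25 (95% interval 0.17 to 0.33) and 0.28 (95% interval 0.09 to 0.46) in neurons and 0.09 and 0.01 in the glial classes. DNAJC1 had -0.03 and -0.15 in neurons, on 17821 and 17791 UMIs and 3539 and 2279 UMIs in the upper and deeper bands.

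Other genes moved with the chaperones. Cytosolic ribosomal protein genes had median log2 ratios of 0.21, 0.39, 0.33 and 0.37 in excitatory, inhibitory, astrocyte-like and oligodendrocyte-like nuclei, and 29 of 31, 26 of 28, 23 of 24 and 25 of 27 were above 0, beside 45.4%, 49.0%, 51.2% and 51.9% of all features. Nuclear genes of the respiratory chain had medians of 0.17, 0.24, 0.21 and 0.13. MIF, a cytokine with chaperone activity, had 1.26, 1.501, 0.40 and 0.78. Its astrocyte-like interval (-0.15 to 0.97) included 0. These genes, like HSPA5 and HSP90AB1, were higher in the deeper-band library in all 4 classes, by the median of each list and by the level of MIF. Their part in the chaperone result was not tested. The 36 other genes of the chaperone system, among them the TRiC and prefoldin subunits and HSP90 co-chaperones, had medians of 0.10, 0.12, 0.17 and 0.02. Of those with enough UMIs, 2 of 35, 3 of 33, 2 of 28 and 1 of 31 were at least 1.5-fold higher, CRYAB in each class. HYOU1 was the 1 gene that was 1.5-fold lower, in astrocyte-like nuclei at -0.65. Among all features 4.2%, 3.49%, 5.15% and 5.02% were that much higher, and 7.68%, 3.82%, 3.87% and 3.19% that much lower.

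**Figure D4:**
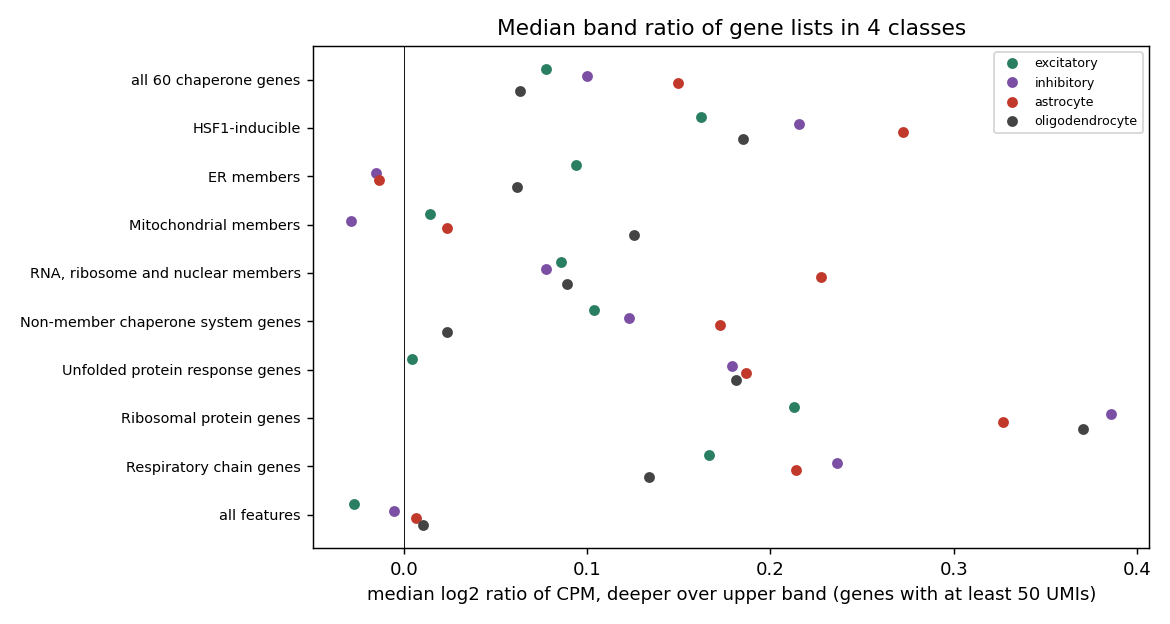
Median log2 ratio of CPM, deeper over upper band, of gene lists in 4 classes, over the genes of each list with at least 50 UMIs in the class. Each dot is 1 class, and the last line is the median of all features. The medians of the chaperone genes lie between 0.06 and 0.15, those of the HSF1-inducible list between 0.16 and 0.27, and those of the ribosomal protein genes between 0.21 and 0.39.

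A total of 13 genes had fewer than 50 UMIs in each of the 4 large classes. DNAJB8 had 0 UMIs in both libraries. The others were HSPA1L, HSPA2, HSPB3, HSPB6, HSPB7, DNAJB7, DNAJC5, DNAJC5B, DNAJC5G, DNAJC22, DNAJC28 and DNAJC30. DNAJC5, the cysteine string protein of synaptic vesicles, had 10 and 9 UMIs in excitatory nuclei, and HSPA2 had 1 and 12 UMIs in oligodendrocyte-like nuclei. For these genes no band or class difference is described, and a low count does not show that the transcript is absent.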

How the data were processed

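For each library the authors deposited UMI counts per gene and barcode (10x Genomics), which are integers per the file headers and not normalized. The submitters' processing notes name Cell Ranger 2.1.1 and 6.2.1 without a role, and the matrix header gives version 3.1.0. The genome build, annotation and use of intronic reads are not given in the sources used here. The matrices held 7151 barcodes with 66253015 UMIs (upper band) and 9694 barcodes with 78352064 UMIs (deeper band).

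Barcodes with at least 500 detected genes were kept, and Scrublet (scanpy 1.11.5) removed 830 (11.7%) and 1458 (15.2%) as doublets. Both libraries were clustered together in Python 3.11.15: 2000 variable genes without the chaperone genes, 30 principal components, 15 neighbours and Leiden resolution 1 (igraph 0.11.9), which gave 27 clusters. Of these, 24 were named from marker lists, and subclusters led by another class's markers stayed unnamed. The unnamed clusters held 569 and 339 nuclei, and clusters are called by their leading gene with a symbol. Counts were summed per class and band and divided by the class total (CPM). Intervals at 95% are exact (Poisson for levels, conditional binomial for ratios, Clopper-Pearson for shares; scipy 1.17.1) and cover counting error only, and the ratio was tested on simulated counts. A gene entered a class comparison with at least 50 UMIs over both libraries.

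The genes and lists were chosen with earlier results of these data known. Named genes were a list of 29 core chaperones (21 with a row by symbol), in each class the 4 highest and 4 lowest ratios, and the 10 largest ratios between classes. A few more are named to complete a family or list, and were chosen after their values were seen. Genes are matched by symbol only, and 13860 features carry none. Alternatives were scaling, doublet removal, depth, clustering and count minimum.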

Additional observations from a re-analysis of the deposited data

How the results depend on the processing

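No variation between animals enters any value, and leaving out a library leaves no comparison. No paired analysis was possible because each band is a single library. The median ratio of the chaperone genes kept its direction and moved by less than its counting interval in all 4 classes under every alternative run. Counts of genes past 1.5-fold are small and shifted. In excitatory nuclei the number lower (1) became 2 with no doublet removal and with a minimum of 20 UMIs, and 0 after thinning to 1500 UMIs and with a minimum of 200 UMIs. In inhibitory nuclei the number higher (4) became 2 after thinning and with a minimum of 200 UMIs. In astrocyte-like nuclei the number higher (5) became 3 with 2 times as many doublets removed, 2 after thinning and 0 with a minimum of 200 UMIs, and the number lower (0) became 1 when the CPM of single nuclei were averaged, with 2 times as many doublets removed, after thinning, and without the clusters led by CD44 and GFAP and by ABCA9 and ENPP6, an alternative chosen after seeing the data. In oligodendrocyte-like nuclei the number higher (1) became 0 with median-of-ratios scaling and with each library clustered on its own, 2 with at least 1000 genes per nucleus and after thinning, and 3 with a minimum of 20 UMIs, and the number lower (0) became 1 after thinning. Higher minimums and thinning leave fewer genes or UMIs, and the cause of the other shifts was not tested. After thinning, excitatory DNAJA2 went to -0.038 and HSPA4 to -0.013 on the log2 scale, each with an interval that included 0. Excitatory and inhibitory HSPA5 stayed between 0.75 and 0.92 and HSP90AB1 between 0.63 and 0.87 under the alternatives. Excitatory HSPB1 (-0.03) ranged up to 1.05 and inhibitory HSPB8 (-0.06) down to -1.66, both on few UMIs.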
